A study of Drosophila melanogaster with 6 samples.

Results

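Genes of the aquaporin family of Drosophila melanogaster were followed here in muscle precursors depleted of the transcription factor M1BP (Motif-1-binding protein), which binds a core promoter element. They were 7 genes, Prip, Drip, bib, Eglp1, Eglp2, Eglp3 and Eglp4, out of 17494 genes in the count table. They were taken by name, and are not every gene of the family (AQP, a further one, is given separately below), and the set was chosen by the measured counts of Prip in the same comparison that is described below. The differences of the members between genotypes are therefore given as a description, with standard errors and with no p-value, and the count of calls among them is a description too. The 3 M1BP RNAi libraries came from larvae that expressed UAS-M1BP RNAi #1 and UAS-GFP::Gma under Mef2-GAL4, and the 3 WT libraries from larvae with the same driver and GFP transgene but no RNAi construct. All larvae were staged to 0 h after puparium formation (APF) at 25 °C, and polyA RNA came from GFP-positive cells sorted by FACS from pooled wing discs. Mef2-GAL4 is active in the muscle lineage and is not exclusive to it, 1 RNAi line was used, and nothing in the labels ties a replicate number to a litter or day, so the spread is that between pools of discs.

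Aquaporins are channels that let water, and in some members small uncharged solutes, cross cell membranes along their gradients. In insects the family has branches with distinct substrates. Drip and Prip are water channels, best known from the Malpighian tubule, where they serve fluid secretion. The Eglp genes encode entomoglyceroporins, which pass glycerol and other small solutes in place of the glycerol channels of vertebrates. bib (big brain) was found as a neurogenic gene, needed when cells choose between neural and epidermal fate through Notch signalling, and in frog oocytes its product conducts ions.

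The 7 genes sit in 3 places in the dm6 genome. bib (FBgn0000180) stands alone on 2L, 9984645 to 9995538, on the plus strand. Drip (FBgn0015872, 2R, 11411203 to 11429645, minus strand) and Prip (FBgn0033635, 2R, 11436243 to 11442216, plus strand) are neighbours on opposite strands, with 6597 bases between them. The 4 Eglp genes form a cluster of 14.17 kb on the same arm, 12160368 bases beyond Prip. In the cluster Eglp1 (FBgn0034882) ran from 23602585 to 23603641 on the plus strand and Eglp2 (FBgn0034883) from 23603722 to 23616754 on the minus strand. Eglp3 (FBgn0034884, 23605689 to 23606654) and Eglp4 (FBgn0034885, 23607592 to 23614710) lay on the minus strand within the span of Eglp2, with exons that shared no base with its own.

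The libraries held 43086545 to 51855156 counted reads each. M1BP itself had 1386, 1703 and 1671 counts in M1BP RNAi and 5821, 5288 and 5589 counts in WT, so that 30.5% of its WT level remained. On the log2 scale M1BP changed by -1.71, with an SE of 0.10, and the edgeR quasi-likelihood test gave an adjusted p of 1.45e-05. The markers of myoblasts, the cells that were sorted, summed to 9300 to 10051 CPM (counts scaled to the library size) in M1BP RNAi and to 9341 to 10666 CPM in WT over 7 genes including twi, Him and htl. Of these 7 genes, 0 reached a p of 0.05, adjusted in edgeR or DESeq2 or unadjusted in edgeR. Markers of the wing disc epithelium, 6 genes, were present as well, at 1554 to 1691 CPM in M1BP RNAi and 1580 to 1793 CPM in WT. Epithelial RNA in the sort and expression of these genes in myoblasts cannot be told apart here.

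A single member, bib, held nearly all counts of the 7 genes, in both genotypes. bib had 64696, 62270 and 68701 counts in M1BP RNAi and 79157, 62380 and 73512 counts in WT. It took 99.9% of the counts of the 7 genes in each M1BP RNAi library and 99.7%, 99.4% and 99.5% in the WT libraries. In RPKM, which scales counts by exon length and library depth, bib stood at 440 ± 18.1 in M1BP RNAi and 452 ± 17.4 in WT (SD, n = 3 each). These levels placed it 116th and 104th among the 14503 genes with any count, within the highest 0.80% in M1BP RNAi and the highest 0.72% in WT. On the same scale twi, the transcription factor that marks myoblasts, averaged 896 RPKM in M1BP RNAi and 916 RPKM in WT, and htl, the FGF receptor of the mesoderm, averaged 198 and 196 RPKM in M1BP RNAi and in WT. bib lay between twi and htl in both genotypes. Of the other myoblast markers, Him stood above bib, at 3504 RPKM in M1BP RNAi and 3840 RPKM in WT, and zfh1, Mef2, vg and ct stood under it. The part of epithelial RNA in the level of bib was not tested.

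**Figure D1:**
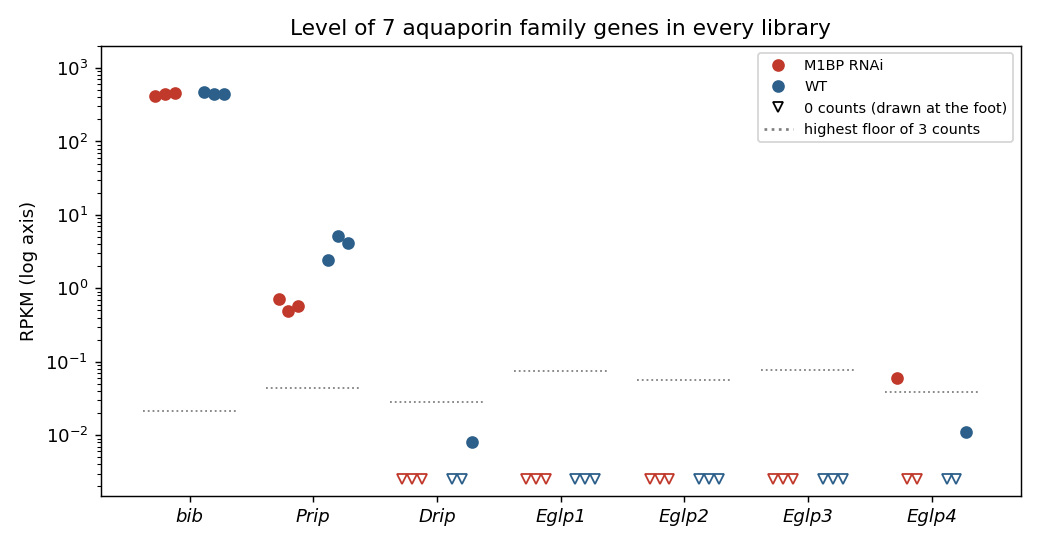
Level of 7 aquaporin family genes in each library, in RPKM on a log axis, with M1BP RNAi (red) left of WT (blue). Open triangles at the foot are libraries with 0 counts, and the dotted line is the highest level that 3 counts would give. bib lies at 423 RPKM or more everywhere, Prip lies between 0.489 and 5.10 RPKM, and the other 5 genes have at most 5 counts in any library.

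The level of bib was close to equal in the genotypes. Its normalised counts (scaled to a common effective library size) were 64746, 67324 and 70300 in M1BP RNAi and 72222, 67005 and 68602 in WT. The highest value belonged to a WT library and the lowest to an M1BP RNAi library, and the values of the genotypes overlapped. The log2 fold change was -0.04 (SE 0.06), with a 95% interval of -0.16 to 0.09, which corresponds to 89.2% to 106% of WT. The replicates were tight, with coefficients of variation of 4.12% in M1BP RNAi and 3.86% in WT. bib shares 99 exonic bases with lncRNA:CR13130 on the opposite strand. That gene had 1566, 1386 and 1587 counts in M1BP RNAi and 1801, 1426 and 1722 counts in WT. This is 2.23% to 2.42% of the counts of bib in a library, so reads counted for both genes can hold no more than that. The nearest genes were RpL13, a ribosomal protein gene that ended 15999 bases before bib, and CG31875, which began 22 bases after it. CG31875 had 268, 177 and 206 counts in M1BP RNAi and 228, 221 and 191 counts in WT, and both of these ranges lie far under that of bib.

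Of the 7 members, Prip was the other one above the detection floor in every library, at a far lower level than bib, and its level was lower in M1BP RNAi. Prip had 53, 34 and 42 counts in M1BP RNAi and 201, 357 and 336 counts in WT. All M1BP RNAi libraries lay under all WT libraries, and the lowest WT library had 3.46 times the normalised count of the highest M1BP RNAi library. The means were 44.3 ± 8.22 normalised counts in M1BP RNAi and 293 ± 102 normalised counts in WT (SD, n = 3 each). The log2 fold change was -2.72 (SE 0.30, 95% interval -3.39 to -2.05), a level 6.60-fold lower in M1BP RNAi. The interval makes no allowance for the choice of the set by these counts. In these bulk libraries fewer cells of a type that expresses Prip and less Prip RNA per cell cannot be told apart. On the scale of log2 fold change Prip was 25th from the lowest among 10306 tested genes, lower than 99.8% of them, a value from the comparison by which the set was picked.

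**Figure D2:**
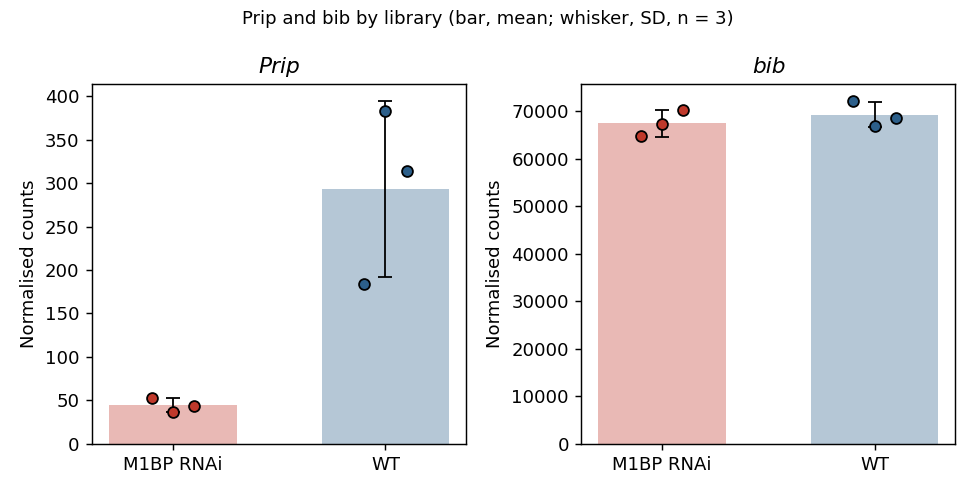
Normalised counts of Prip and bib in each library (points), with the mean (bar) and SD (whisker, n = 3), M1BP RNAi left of WT. For Prip the means are 44.3 and 293 with no overlap of points, and for bib they are 67457 and 69276 with overlapping points.

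The replicates of Prip were less tight than those of bib. In M1BP RNAi the highest normalised count was 1.44 times the lowest, and in WT it was 2.09 times the lowest. WT replicate 1, with 183 normalised counts, stood under WT replicates 2 and 3, with 383 and 314. Leaving out WT replicate 1 gave a log2 fold change of -2.97 and leaving out WT replicate 2 gave -2.49, the extremes over 11 alternatives. Nothing is read from their shared sign, since every M1BP RNAi library lay under every WT library. In RPKM the level of Prip was 0.705, 0.489 and 0.571 in M1BP RNAi and 2.44, 5.10 and 4.17 in WT. Among genes with a count it ranked 8825th of 14503 in M1BP RNAi and 6958th in WT, which is in the lower part of the genes in M1BP RNAi and near the middle in WT. The counts do not separate the 4 annotated transcripts of Prip.

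The balance of the expressed members differed accordingly. The RPKM of bib was 600, 900 and 803 times that of Prip in the M1BP RNAi libraries and 193, 85.8 and 107 times that of Prip in the WT libraries. The mean ratio was 767 ± 153 in M1BP RNAi and 129 ± 56.9 in WT (SD, n = 3 each), with no overlap. As a share of the counts of the 7 genes, Prip took 0.0818%, 0.0546% and 0.0611% in M1BP RNAi and 0.253%, 0.569% and 0.455% in WT. The highest exact Clopper-Pearson 95% limit of an M1BP RNAi library was 0.107%, and the lowest limit of a WT library was 0.220%. The shares restate the Prip counts by which the set was chosen, so nothing is read from this separation. These intervals leave out the spread between pools of discs. They also take each read as an independent molecule, which amplified reads without molecular identifiers are not, so they may be too narrow.

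The second tubule water channel, Drip, was not detectable at this depth, although it lies next to Prip. Drip had 0, 0 and 0 counts in M1BP RNAi and 0, 0 and 1 counts in WT. A library with 0 counts of Drip allows a level of up to 0.0232 to 0.0279 RPKM, taken as 3 counts. Prip lay above that range in every library, at 0.489 RPKM in the lowest.

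The glycerol channels among the members were at or near 0 counts too. Eglp1, Eglp2 and Eglp3 had 0 counts in all 6 libraries, which allows up to 0.0617 to 0.0742 RPKM for Eglp1, 0.0467 to 0.0562 RPKM for Eglp2 and 0.0641 to 0.0772 RPKM for Eglp3. Eglp4 had 5, 0 and 0 counts in M1BP RNAi and 0, 0 and 1 counts in WT. All but 1 of the 6 Eglp4 counts were in a single M1BP RNAi library, and the ratio of the pooled levels, 5.34, had an interval of 0.598 to 253 from counting error alone. In RPKM the order was bib, then Prip, then the others in every library, and the order among Drip and the 4 Eglp genes could not be resolved.

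AQP (FBgn0033807, 2R, 13212405 to 13214496, minus strand), a further gene of the family by its symbol, was not among the 7 and is given because its values were seen. AQP had 4, 2 and 15 counts in M1BP RNAi and 16, 19 and 26 counts in WT, and its normalised counts overlapped between the genotypes. In RPKM it stood at 0.121 ± 0.120 in M1BP RNAi and 0.332 ± 0.0818 in WT (SD, n = 3 each), under Prip in every library. The log2 difference was -1.44 (SE 0.66, BH-adjusted p 0.261 in edgeR and 0.334 in DESeq2), which did not pass. With AQP counted in, bib held 99.7% of the counts over all libraries.

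Of the 7 members, 4 had at least 1 count and 3 had none, 2 passed the filter on low counts and were tested across the genome, and 5 did not pass. At the study's threshold (adjusted p no higher than 0.001 and a 1.5-fold or larger change) 1 member, Prip, was counted among the genes called, on the lower side. Among all 10306 tested genes 49 were called (0.475%), 26 of them lower in M1BP RNAi (0.252%). At an adjusted p of 0.05 the called genes were 422 (4.09%), and the genes whose libraries did not overlap and were lower in M1BP RNAi were 1263 (12.3%). Since Prip was picked from this comparison, nothing is read from its place among these genes. With the size factors of DESeq2 in place of TMM, or without any 1 library other than WT replicate 1, 0 members were called.

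Markers of other cell types were examined beside Prip. The 3 Malpighian tubule markers, Uro, Picot and salt, summed to 1.03 to 1.55 CPM in M1BP RNAi and 0.936 to 1.75 CPM in WT, which overlapped, and Uro, the urate oxidase of the tubule, was at or under the floor of 3 counts in every library. Haemocyte markers (5 genes) summed to 18.7 to 23.8 CPM in M1BP RNAi and 25.4 to 36.9 CPM in WT, without overlap. Within that list eater, a phagocytic receptor of blood cells, was at 0 in all libraries, and Hml, the haemolectin of the same cells, had 0, 0 and 0 counts in M1BP RNAi and 0, 0 and 7 counts in WT. The 5 tracheal markers summed to 17.7 to 26.0 CPM in M1BP RNAi and 23.2 to 52.0 CPM in WT, which overlapped.

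The order of the WT libraries for Prip differed from that of the tracheal and haemocyte sums. Prip was highest in WT replicate 2, at 8.20 CPM, where the tracheal markers, at 23.2 CPM, and the haemocyte markers, at 25.4 CPM, were lowest among the WT libraries. The haemocyte sum was carried by Pxn, a peroxidasin. Its member srp, the GATA factor of blood cells, had the same WT order as Prip, with 25.0, 36.8 and 18.4 normalised counts in M1BP RNAi and 53.8, 83.8 and 75.6 normalised counts in WT, without overlap. The log2 difference of srp was -1.41 (SE 0.36, BH-adjusted p 0.0641 in edgeR). In edgeR 0 genes of the tracheal, haemocyte and tubule lists passed an adjusted p of 0.05. At an unadjusted p of 0.05 the tracheal list had 3 of 5 tested genes, the haemocyte list 2 of 3 and the tubule list 0 of 2. At an adjusted p of 0.05 the DESeq2 Wald test called 2 tracheal genes (serp and Gasp), 2 haemocyte genes (Pxn and srp) and 0 tubule genes. All of those called were lower in M1BP RNAi. The tracheal genes trh, at 0.14 on the log2 scale (SE 0.29), and btl, at -0.17 (SE 0.21), did not share the fall. The sum of differentiated muscle markers (6 genes) went the other way, at 449 to 502 CPM in M1BP RNAi and 337 to 399 CPM in WT without overlap. That sum was carried by Act57B, an actin of muscle, with means of 21936 normalised counts in M1BP RNAi and 16724 in WT. Act57B was higher by 0.39 on the log2 scale (SE 0.08, BH-adjusted p 0.0203 in edgeR). Act88F followed at 254 and 141, with 178, 181 and 378 counts in M1BP RNAi and 171, 126 and 140 counts in WT. Mhc, Tm2 and up also had higher means in M1BP RNAi, and wupA a lower one, at 3.68 beside 7.08. Mhc had 55, 45 and 224 counts in M1BP RNAi and 69, 43 and 75 counts in WT. up had 11, 17 and 36 counts in M1BP RNAi and 14, 3 and 8 counts in WT. Both overlapped between the genotypes, and M1BP RNAi replicate 3 was the highest library for Act88F, Mhc, Tm2 and up. Fat body (0.342 to 1.51 CPM in M1BP RNAi, 0.658 to 1.03 CPM in WT), neuron (27.9 to 32.5 CPM in M1BP RNAi, 30.9 to 33.2 CPM in WT) and glia (4.79 to 7.28 CPM in M1BP RNAi, 3.40 to 6.24 CPM in WT) markers overlapped between the genotypes. The part of the haemocyte, tracheal and muscle RNA in the difference of Prip was not tested.

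**Figure D3:**
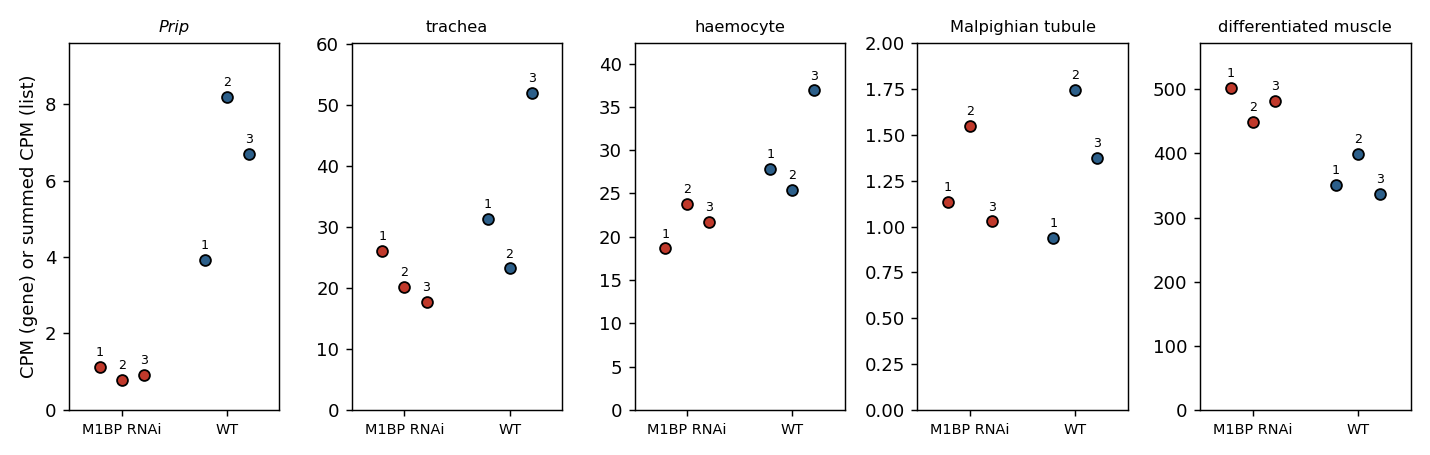
CPM of Prip and summed CPM of 4 marker lists in each library, M1BP RNAi (red) left of WT (blue), with the replicate number above each point and axes that start at 0. Prip and the haemocyte list are lower in M1BP RNAi without overlap. The muscle list, carried by Act57B, is higher without overlap. The WT library with the most Prip, replicate 2, has the lowest tracheal and haemocyte sums of the WT libraries. Within the haemocyte list srp, not drawn alone, has the same WT order as Prip.

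The tested genes around Prip did not follow it. Of 16 genes that reach into the window of 50 kb on either side of Prip, 6 were tested, and their log2 fold changes ran from -2.72 for Prip itself to 1.46. The nearest genes were a long non-coding RNA gene, lncRNA:CR43771, which ended 2944 bases before Prip and had 0, 1 and 0 counts in M1BP RNAi and 0 in each WT library, and qvr, a regulator of potassium channels known from sleep, which began 288 bases after Prip and had 2, 0 and 3 counts in M1BP RNAi and 1, 2 and 4 counts in WT. Neither came near the level of Prip. On the far side of qvr, E(Pc), a chromatin gene of the Polycomb group enhancers, stood at 0.07 on the log2 scale (SE 0.06, BH-adjusted p 0.553 in edgeR).

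On the other side of Drip, Smyd4-3, which encodes a protein with SET and MYND domains, was higher in M1BP RNAi. It is named because its values were seen. Smyd4-3 (FBgn0033633, 2R, 11405597 to 11408079) had 414, 241 and 290 counts in M1BP RNAi and 108, 118 and 138 counts in WT, without overlap. The means were 324 ± 80.4 normalised counts in M1BP RNAi and 118 ± 16.9 normalised counts in WT (SD, n = 3 each), a log2 difference of 1.46 (SE 0.22, BH-adjusted p 0.00489 in edgeR). Apart from Prip, by whose counts the set was chosen, Smyd4-3 was the only gene of the window past an adjusted p of 0.05. Its log2 difference had the opposite sign to that of Prip. Around bib 23 of 25 genes in a window of the same size were tested, with log2 fold changes from -0.81 to 0.15, and 1 passed an adjusted p of 0.05.

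**Figure D4:**
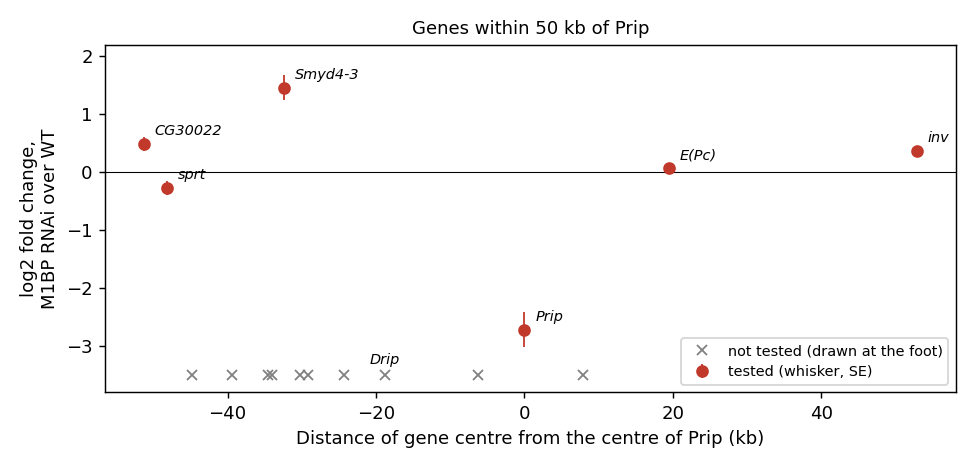
log2 fold change, M1BP RNAi over WT, of the 6 tested genes in the window of 50 kb on either side of Prip (points, with the SE as whisker) against the distance of their centres from that of Prip in kb. Crosses at the foot are genes with too few counts to be tested, Drip among them. Prip is at -2.72, Smyd4-3 at 1.46 and E(Pc) at 0.07.

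Genes outside the family whose log2 CPM followed that of Prip most closely over the 6 libraries were Topors (Pearson r 0.996), which encodes a nuclear RING-domain ligase, Tsp39D (r 0.996), a tetraspanin of the membrane, and CtIP (r 0.994), a DNA end resection factor. These r values are a description, since the 6 libraries fall into 2 genotypes and are not 6 independent points. The size of the difference was not alike. Tsp39D averaged 487 ± 9.84 normalised counts in M1BP RNAi and 925 ± 106 in WT (SD, n = 3 each), a log2 fold change of -0.92. Topors had a log2 fold change of -0.27 and CtIP one of -0.38, and exons of CtIP overlap those of Hpd by 141 bases. Prip, at -2.72, lay well under all of them.

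Genes that act with water and glycerol channels, and neurogenic genes set beside bib, were listed by function to set the family in its context. Of 64 listed genes with counts on record, 49 were tested, and 4 of these passed an adjusted p of 0.05, all lower in M1BP RNAi, which is 8.16% of the tested genes beside 4.09% of all genes in either direction. The median log2 fold change of the 49 was -0.05, beside 0.01 over all tested genes. An unadjusted p of 0.05 was reached by 10 of the 49, and DESeq2 called 5 at an adjusted p of 0.05, the same 4 and Vha13, which was on the higher side. A single gene, Ncc69, passed the threshold of the study.

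Ncc69 encodes the sodium-potassium-chloride cotransporter that brings ions into secreting tubule cells under the kinases Wnk and fray. Ncc69 (3L, 12368646 to 12391444) had 4755, 4300 and 4432 counts in M1BP RNAi and 8706, 6859 and 7708 counts in WT, without overlap. Its means were 4648 ± 112 normalised counts in M1BP RNAi and 7501 ± 393 in WT (SD, n = 3 each). The log2 difference was -0.69 (SE 0.06, BH-adjusted p 0.000255 in edgeR), and over 11 alternatives the adjusted p did not exceed 0.00407. At the stricter threshold of the study the call was lost without any 1 M1BP RNAi library or without WT replicate 1. The other 4 genes of that list, with NKCC, kcc, Wnk and fray, did not pass. Wnk had a log2 fold change of -0.03 (SE 0.07) and fray one of 0.01 (SE 0.07), so the log2 differences of the kinases that act on the cotransporter were near 0.

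Among exchangers of cations against protons 1 of 4 tested genes passed. Nha1, of the sodium/proton antiporter family, had 103, 75 and 98 counts in M1BP RNAi and 252, 140 and 230 counts in WT, a log2 difference of -1.06 (SE 0.23, BH-adjusted p 0.0310 in edgeR). The call was lost without any 1 library other than WT replicate 2, with adjusted p-values up to 0.143. Of 16 tested subunits of the V-ATPase, the proton pump that energises epithelia, 1 passed. This was Vha68-1, a catalytic subunit, with 1601 ± 125 normalised counts in M1BP RNAi and 2023 ± 119 in WT (SD, n = 3 each) and a log2 difference of -0.34 (SE 0.08, BH-adjusted p 0.0492 in edgeR). It was past the threshold in 3 of 11 alternatives, and the whole complex ran from -0.34 to 0.26 around a median of -0.05. The highest value was that of Vha13, a stalk subunit, with 2857 ± 80.3 normalised counts in M1BP RNAi and 2389 ± 188 in WT (SD, n = 3 each), without overlap. Its BH-adjusted p was 0.0845 in edgeR, and the Wald test of DESeq2 called it at 0.05.

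In the other 5 of the 9 lists edgeR called 0 genes. At an adjusted p of 0.05 DESeq2 called 0 in them as well, and an unadjusted p of 0.05 was reached by 1 chloride channel gene, 1 glycerol enzyme gene and 0 genes of the sodium pump, the potassium channels and the diuretic hormones. The sodium pump, with Atpalpha and its beta subunits, had 0 of 3 tested genes past an adjusted p of 0.05 and a median log2 fold change of 0.06. For the inward rectifier potassium channels, 0 of 2 tested genes passed and the median was 0.21. Of 5 tested chloride channel genes, 0 passed and the median was -0.09. Among the chloride channels Best2, a bestrophin, had 26, 32 and 2 counts in M1BP RNAi and 98, 33 and 89 counts in WT (log2 difference -1.73, SE 0.69, BH-adjusted p 0.197 in edgeR), and the spread of its replicates was wide. ClC-a, the chloride channel that works beside the water channels in the stellate cells of the tubule, had too few counts to be tested, with 2, 3 and 5 in M1BP RNAi and 28, 6 and 33 in WT, without overlap.

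Most of the enzymes that make and use glycerol, the substrate of the Eglp channels, were detected, while the channels themselves were at or near 0 counts. Gpdh2 (0, 0 and 2 counts in M1BP RNAi, 0, 0 and 1 in WT) and Gpo3 (0, 4 and 0, and 0, 0 and 1) were near 0 too. Of 6 tested genes 0 passed an adjusted p of 0.05, with a median log2 fold change of -0.04 and a range of -0.32 to 0.36. Gk1, a glycerol kinase, had 2368, 2126 and 2086 counts in M1BP RNAi and 2665, 2333 and 2510 counts in WT. Gpdh1, the cytosolic glycerol-3-phosphate dehydrogenase, had a log2 fold change of 0.01 (SE 0.07). Of the 9 diuretic hormones and receptors, which set water transport in the tubule, 2 had enough counts to be tested and 0 passed, with a median of 0.02.

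Of 7 neurogenic genes listed with bib, 6 were found and tested. Dl was not found under its listed symbol and was left out, so the values of this list are without it. Of the 6 tested genes 1 passed, on the lower side. E(spl)m8-HLH, a repressor that is a classic target of Notch, had 1841, 1119 and 1283 counts in M1BP RNAi and 3049, 1959 and 2377 counts in WT. E(spl)m8-HLH thus changed by -0.70 on the log2 scale (SE 0.16, BH-adjusted p 0.0385 in edgeR). The call was lost without M1BP RNAi replicate 2 or 3 or WT replicate 1 or 3, with adjusted p-values up to 0.165. N, the Notch receptor, stood at -0.08 on the log2 scale (SE 0.09, BH-adjusted p 0.646 in edgeR), and the median of the list was -0.10.

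**Figure D5:**
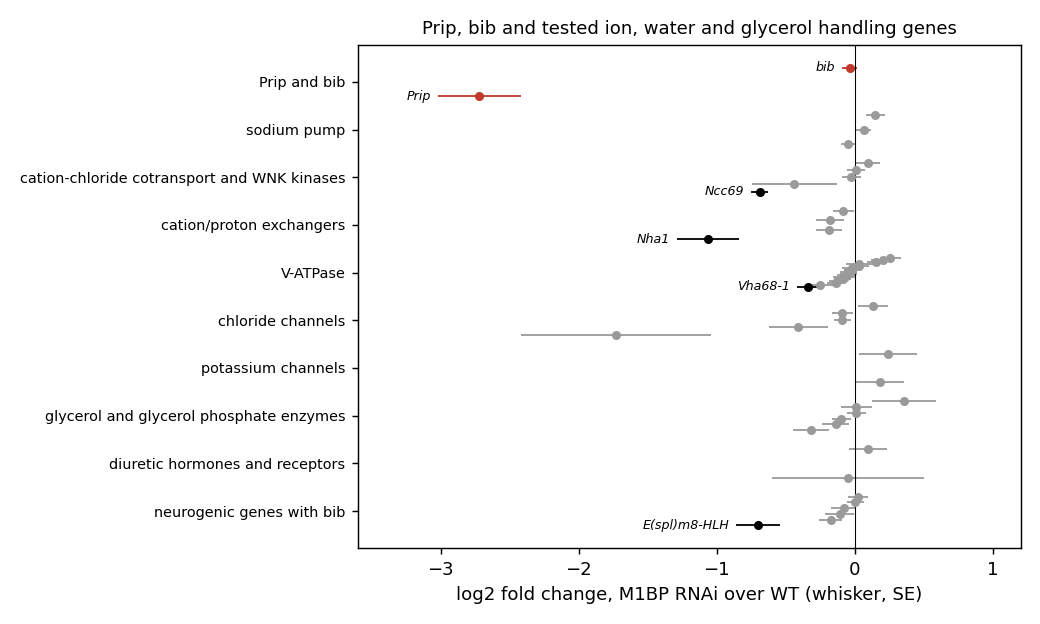
log2 fold change, M1BP RNAi over WT, with its SE, for Prip and bib (red, top) and the 49 tested genes of 9 functional lists below. Black points with names are the 4 list genes past an adjusted p of 0.05, all left of 0, and grey points did not pass. Prip, at -2.72, lies left of every list gene and bib, at -0.04, lies beside 0.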

How the data were processed

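Groups and replicate numbers came from the sample titles, and the labels name no batch. The authors deposited raw counts of uniquely aligned reads per gene, summed over exons in dm6; the submitters' processing notes name bcl2fastq 2.17.1.14, Subread 2.0.3 and featureCounts. Use of strand was not given in the sources used here, so overlapping genes on opposite strands may share counts. cDNA was amplified from polyA RNA without molecular identifiers. A deposited table of the authors' own comparison (mean level, log2 fold change, standard error, p-values) was used for symbols only.

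Of 17494 genes, 14503 had a count and 10306 passed filterByExpr (minimum count 10) of edgeR 4.0.16 (R 4.3.3). TMM factors lay between 0.988 and 1.007. Genotype was the single term in glmQLFit and glmQLFTest, with Benjamini-Hochberg adjustment over all tested genes. Genes were called as in the study (adjusted p no higher than 0.001, 1.5-fold or more), and context genes were also counted at 0.05. RPKM used exon lengths of the count table and effective library sizes, and log2 CPM a prior count of 2. Spans of the members equal those in the Ensembl annotation. The procedure was tested on simulated data. Alternatives were DESeq2 1.42.0 (size factors, or its Wald test), library totals, no filter, a replicate block and leaving out each library.

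The members and lists were chosen with earlier results of these data known. The rule for naming genes covered the 7 members, M1BP, their overlapping and nearest genes, the context genes past an adjusted p of 0.05 (up to 2 in each direction and list) and the 3 genes most like Prip with a mean of at least 50 counts. Others, AQP and srp among them, were named after their values were seen. Of 67 listed context genes, 64 were found in the table under the listed symbol.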

Additional observations from a re-analysis of the deposited data

How the results depend on the processing

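The 49 genes called at the threshold of the study became 174 with the Wald test of DESeq2, 99 without the filter on low counts, 422 at an adjusted p of 0.05 and 17 to 31 when 1 library was left out. The 1 called member, Prip, was not called with DESeq2 size factors (0 members) and 0 to 1 members were called when 1 library was left out, the call being kept without WT replicate 1. The context genes called, 1 at the threshold of the study, became 2 with the DESeq2 Wald test, 0 to 1 without 1 library and 4 at an adjusted p of 0.05, the last chosen after seeing the data. Without division by exon length bib had 1563 times the counts of Prip in M1BP RNAi and 262 times in WT. The log2 fold change of Prip lay between -2.97 and -2.49 and that of bib between -0.07 and -0.01 over 11 alternatives, and M1BP had adjusted p-values up to 0.000239. With a replicate block 19 genes were called, 17 of them among the 49, with 0 members and 0 context genes. Over all tested genes, same-numbered libraries did not deviate together from their genotype means (r 0.03, -0.05 and -0.16). These r values cannot decide whether the numbers pair the samples, since an effect on few genes would hardly move them. With 3 libraries a genotype and 0.0579 to 0.0696 CPM as the level of 3 counts, differences among Drip and the Eglp genes were beyond reach at this depth.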
